A study of Mus musculus with 2 samples.

Results

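The zinc finger genes named Zfp900 to Zfp999 were described in RNA from mouse embryonic stem cells labelled as knockouts of both Ago1 and Ago2, genes of the Argonaute family of small RNA binding proteins. The members were all protein-coding genes whose GENCODE M21 symbol is Zfp followed by a 3-digit number beginning with 9 and whose Ensembl identifier is listed in both count files. There were 63 such genes among 47643 listed identifiers and 21620 listed protein-coding genes. The rule uses symbols and annotation, and no measured level. A comparison set was formed by the other 302 protein-coding genes with a symbol made of Zfp and a number.

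Cells were of the E14 line, on a 129/Ola background and of blastocyst origin, with the genotype label AGO1&AGO2 double KO in both libraries. They were kept on gelatine in medium with serum, LIF (a cytokine that sustains self-renewal), beta-mercaptoethanol and antibiotics. PolyA RNA was profiled in 2 libraries, called replicate 1 and replicate 2 after their titles, with 34798975 and 29789560 counts. Unmodified cells were not analysed here, so every value is a level in cells of that label or a difference between the libraries, and none measures an effect of a knockout. Of the targeted genes, Ago1 had 2463 counts in replicate 1 and 4205 in replicate 2 (70.8 and 141 CPM, counts scaled to the library total), and Ago2 had 4304 and 3839 counts (124 and 129 CPM). Both genes were thus counted in both libraries, and counts over whole genes do not show whether either carries its edit. Ago1 differed between the libraries, with a log2 ratio of 0.99 ± 0.04 (replicate 2 to replicate 1, counting SE; adjusted p = 5.53e-166, exact binomial, and 1.33e-08, edgeR), while Ago2 was not called. The libraries therefore differ in a targeted gene, and the part of this in the differences between replicates reported here was not tested. Whether the cultures or clones were separate is not given in the labels, so the spread reported is that between these samples and may be technical.

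Most proteins of this family join a KRAB box to a row of C2H2 zinc fingers. Each finger folds around a zinc ion held by cysteine and histidine residues and contacts a few bases of DNA, so the row of fingers sets which sequence is bound. The KRAB box recruits the co-repressor TRIM28, which brings in the histone methyltransferase SETDB1 and heterochromatin proteins. In embryonic stem cells this route is known for silencing endogenous retroviruses and for protecting imprinted regions. The genes arose by repeated duplication, and many lie in clusters that differ between rodents and other mammals.

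The sequences of the members carried this history. In coding sequences from GENCODE transcripts, a KRAB A box pattern was found in 58 of 63 members (92.1%), against 97 of the 302 other Zfp genes (32.1%) and 1.12% of all protein-coding genes. At least 4 finger patterns, each with cysteines 2 to 4 residues apart, a loop of 12 residues and histidines 3 to 5 residues apart, were found in 57 members, against 85.4% of the other Zfp genes. The median was 11 fingers per member and the highest number was 21, in Zfp974. No finger was found in the annotated products of Zfp935, Zfp957 and Zfp972, and 2 or 3 were found in Zfp993, Zfp978 and Zfp979. The KRAB A box pattern was not found in Zfp953, Zfp956, Zfp957, Zfp972 and Zfp974, which says only that this pattern does not match there.

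A stretch of 50 bases that recurs in many members is shown because reads from it are the same for every gene that holds it. Stretches were ranked by the number of members that hold them. The first was taken that was coding in all of these members, in the same reading frame, and encoded the linker marked below. The linker was thus a condition of the choice, and more widespread stretches may have been passed over. It lies in the coding sequence of 11 members, all on chromosome 4, and in 14 annotated genes in all. The capitals mark the 18 bases that encode the conserved 6-residue linker between neighbouring fingers. The same 18 bases occur in the coding sequence of 22 members, and the 6 residues, in any codons, occur in 60 of 63.
Stretch in Zfp979, Zfp981, Zfp982 and Zfp985 to Zfp992: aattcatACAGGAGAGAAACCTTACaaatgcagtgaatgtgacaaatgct

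The KRAB box was also close to identical within the largest cluster. The 69 bases that encode the matched part of the KRAB A box are shown for 6 members. They are the 5 members called lower in replicate 2 with the largest differences, and Zfp982, which did not pass the test. Capitals mark the bases that differ from Zfp981.
Zfp981: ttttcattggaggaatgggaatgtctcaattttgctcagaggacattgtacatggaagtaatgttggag
Zfp992: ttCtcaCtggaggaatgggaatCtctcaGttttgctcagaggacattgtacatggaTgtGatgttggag
Zfp991: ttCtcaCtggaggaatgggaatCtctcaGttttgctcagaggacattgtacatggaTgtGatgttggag
Zfp978: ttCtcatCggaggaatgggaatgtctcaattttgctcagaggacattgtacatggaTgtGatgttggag
Zfp982: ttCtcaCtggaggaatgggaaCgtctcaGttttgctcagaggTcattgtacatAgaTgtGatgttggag
Zfp951: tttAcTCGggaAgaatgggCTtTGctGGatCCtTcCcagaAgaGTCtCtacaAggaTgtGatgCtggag
Zfp992 and Zfp991 each differed from Zfp981 at 6 of 69 bases, Zfp978 at 4 and Zfp982 at 8. Zfp951, which lies on chromosome 5 outside any cluster, differed at 24. Within the chromosome 4 cluster, Zfp933 stood apart with 27 differences, while the other 14 members compared with Zfp981 had 4 to 8.

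Because of such copies, the count of a member can include or lose reads of another gene. The share of a member's 50-base stretches that is also found in transcripts of other genes ran from 0% in Zfp949 to 100% in Zfp935, Zfp967 and Zfp969, with a median of 20.1%. It was under 10% in 23 members, from 10 to under 50% in 21 and at least 50% in 19. How reads that map to several genes were counted is not given in the sources used here. Exons of 12 members also overlap those of another annotated gene on either strand. The values of members with a large share are uncertain one by one, and near copies are not independent measurements.

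The members lay on 12 chromosomes, most of them in clusters. With neighbours at most 500 kb apart and at least 3 members, 41 of 63 members (65.1%) fell into 6 clusters. The largest, with 16 members, spanned 2338 kb of chromosome 4 (GRCm38, 145510759 to 147848366), with 13 members on the plus strand and 3 on the minus strand. Chromosome 17 held a cluster of 10 members (21567008 to 22867134). Chromosome 2 held a first cluster of 4 (175372436 to 175931100) and a second of 4 (177464733 to 178078476). Clusters of 4 and 3 lay on chromosome 7 (42579783 to 43192109) and chromosome 8 (69209038 to 69749970). The median share of recurring 50-base stretches was 95.9% in the first chromosome 2 cluster, 61.2% on chromosome 4 and 50.3% in the second chromosome 2 cluster. It was 18.0% on chromosome 7, 7.81% on chromosome 17 and 1.55% on chromosome 8.

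The family was expressed nearly throughout. A level of 1 CPM in both libraries was reached by 59 of 63 members (93.7%), by 268 of the 302 other Zfp genes (88.7%) and by 58.0% of all protein-coding genes. In TPM, which also divides by exon length and so allows genes to be compared, 57 members reached 1 in both libraries. The median level of the members, as log2(CPM + 1), was 3.49 ± 0.11 (SD over the libraries, n = 2), against 3.58 ± 0.02 for the other Zfp genes and 2.37 ± 0.06 for protein-coding genes. Together the 63 members took 50926 counts in replicate 1 and 37252 in replicate 2, or 1463 and 1251 CPM. The chromosome 4 cluster alone gave 62.0% of these counts in replicate 1 and 57.0% in replicate 2.

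**Figure D1:**
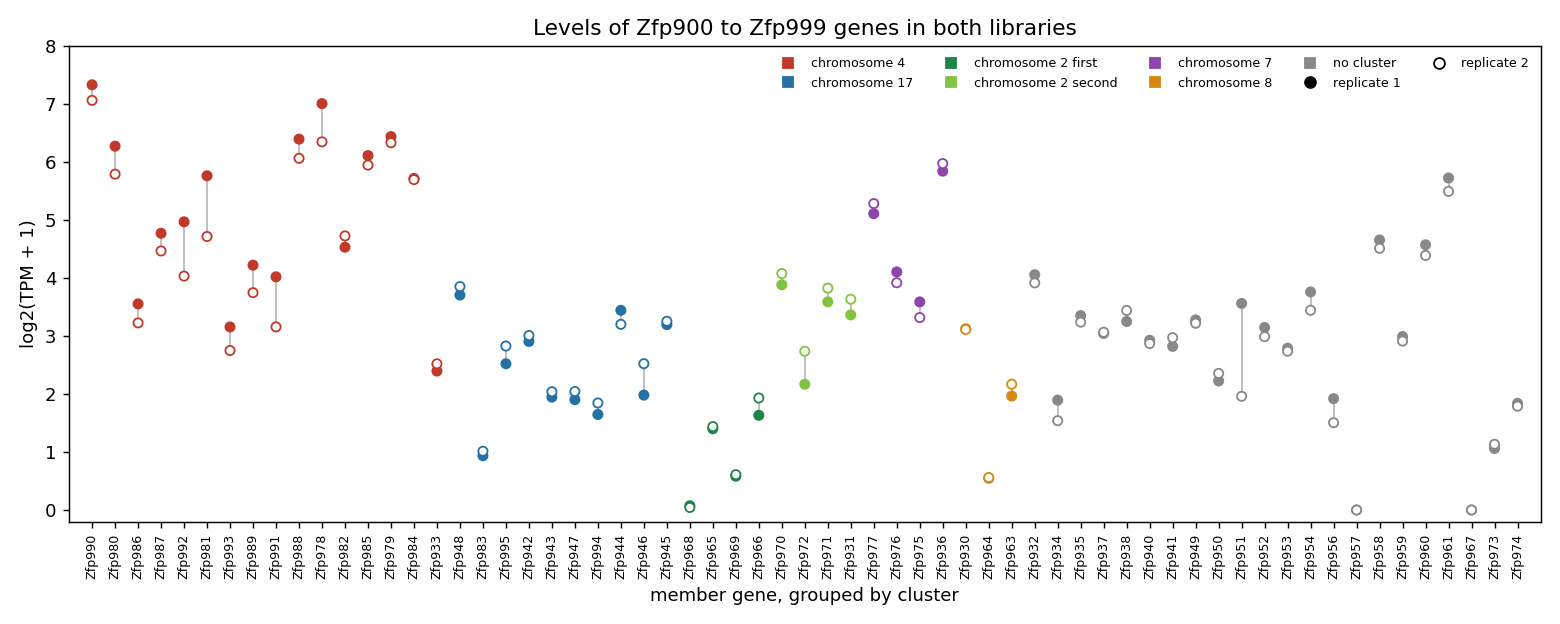
Level of each of the 63 members as log2(TPM + 1) on the vertical axis, grouped by cluster on the horizontal axis, with filled points for replicate 1 and open points for replicate 2. Members of the chromosome 4 cluster hold 9 of the 12 highest mean levels, and several of them lie visibly lower in replicate 2, whereas the points of most other members nearly coincide.

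Ordered by mean TPM, 9 of the 12 highest members belonged to the chromosome 4 cluster. Zfp990 (ENSMUSG00000078503; chromosome 4, 145510759 to 145539188, plus strand) led with 160 TPM in replicate 1 and 133 TPM in replicate 2, a mean of 146 ± 19.3. Zfp978 (ENSMUSG00000078497) followed with 127 and 80.4 TPM, so the range of Zfp990 lay above that of its neighbour in this order. Zfp979 had 85.7 and 79.5 TPM, Zfp988 83.1 and 65.8, Zfp980 76.3 and 54.3, and Zfp985 68.1 and 60.6. Each of these 4 genes overlapped the next in this order, while Zfp979 lay above Zfp980 and Zfp985 in both libraries.

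The next 6 members included the highest outside the cluster, Zfp936, Zfp961 and Zfp977, and 3 more of the cluster, Zfp984, Zfp981 and Zfp982. Zfp936 on chromosome 7 (ENSMUSG00000064194; 43114229 to 43192109, plus strand) stood at 56.3 and 61.8 TPM, inside the range of Zfp980. Zfp984 had 51.6 and 50.8 TPM and Zfp961 on chromosome 8 had 51.8 and 44.0 TPM, without separation between them. Exons of Zfp961 overlap those of Cyp4f18, a cytochrome P450 gene, with strand not considered. Zfp981 (53.2 and 25.3 TPM), Zfp977 (33.5 and 37.9 TPM) and Zfp982 (22.1 and 25.5 TPM) completed the 12. Of these last 3 members, Zfp981 was the one whose libraries lay farthest apart.

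Within the chromosome 4 cluster the levels still covered a wide range. Zfp933, the last member and the one with the most distant KRAB box, was the lowest there with 4.26 and 4.74 TPM. In the chromosome 17 cluster, levels ran from 0.965 ± 0.0750 TPM for Zfp983 to 12.7 ± 0.991 TPM for Zfp948. In the chromosome 8 cluster they ran from 0.467 ± 0.00995 TPM for Zfp964 to 7.68 ± 0.0506 TPM for Zfp930, and in the chromosome 7 cluster from 9.99 ± 1.46 TPM for Zfp975 to 59.1 ± 3.85 TPM for Zfp936. Zfp932 (ENSMUSG00000066613; chromosome 5, 109996521 to 110010411, plus strand), known with its near copy Gm15446 for silencing endogenous retroviruses in these cells, stood at 15.6 and 14.1 TPM. Gm15446 holds 34.9% of the 50-base stretches of Zfp932.

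Several of the lowest members lay on chromosome 2, where copies are nearly identical. Zfp967 had no count in either library, Zfp968 had 2 and 1, Zfp969 had 11 and 10, Zfp965 had 48 and 43, and Zfp966 had 79 and 91. Every 50-base stretch of Zfp967 also occurs in Zfp966, in Zfp968 and in Zfp969, and every one of Zfp969 occurs in Zfp968. A count of 0 allows up to 3 counts, or 0.0862 CPM in replicate 1 and 0.101 CPM in replicate 2. For Zfp967 that limit covers reads counted for this gene, not its transcription, since no 50-base stretch is its own. In the second cluster of the chromosome the levels ran from 4.58 ± 1.54 TPM for Zfp972 to 14.8 ± 1.49 TPM for Zfp970.

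Over the 11 members on chromosome 2 the share of recurring stretches and the mean TPM had a Spearman rho of -0.86. Over all 63 members it was 0.05, and several chromosome 4 members combined large shares with high levels. These points share both libraries and, in part, their reads. Zfp957 on chromosome 14, with 0.229% of its stretches in other genes, had no count in either library, and was thus not detectable at this depth, to the same limits of 3 counts. Zfp935 illustrates the opposite case, since 99.2% of its stretches lie in the overlapping gene Gm49359, and its 189 and 149 counts are uncertain.

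**Figure D2:**
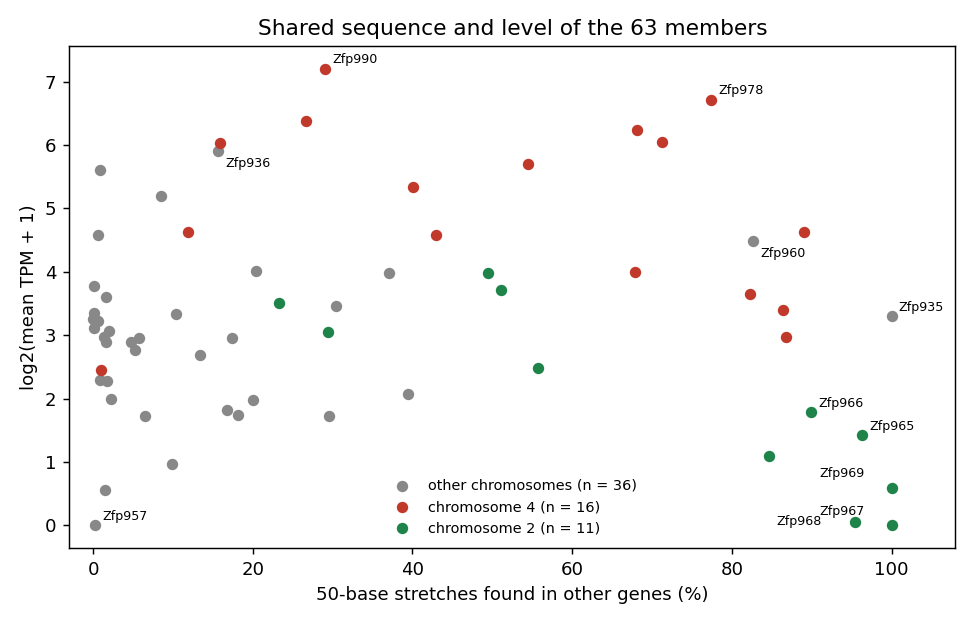
Share of each member's 50-base stretches that also occur in transcripts of other genes (horizontal axis, percent) against its level as log2(mean TPM + 1) (vertical axis), 1 point per member. The 4 chromosome 2 members with the largest shares lie at the bottom right, and chromosome 4 members such as Zfp978 combine large shares with high levels.

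The libraries were then set against each other, which gives the error of these levels. An exact binomial test (two-sided, one test for each gene, Benjamini-Hochberg over the 19078 genes that had 10 counts or more) weighs a difference against counting error only and compares these libraries, not conditions. It called 24.2% of all tested genes, 13.1% as lower and 11.2% as higher in replicate 2. Of the 63 members 60 could be tested, and 18 were lower and 3 higher in replicate 2, while 39 were not called. Members had a median GC content of 38.7%, against 50.1% for tested genes. With a GC trend removed 22 were lower and 1 higher, where 10.5% of all tested genes were lower. The edgeR test, whose dispersion was estimated from these same libraries, called 4 members, all lower in replicate 2, where it called 0.325% of all tested genes lower and 0.44% in either direction.

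The chromosome 4 cluster accounted for most of these calls. Of its 16 members 11 were lower in replicate 2 and none was higher. Among all tested genes 13.1% were called lower. Among genes with at least 100 counts in total, as every member of this cluster had, the share was 16.9%. The other 5 did not pass the test. Outside the cluster 7 of 44 tested members (15.9%) were lower and 3 were higher, and among the other Zfp genes 26 of 289 were lower and 35 higher. Summed over the cluster, 31583 counts in replicate 1 stood against 21245 in replicate 2, a log2 ratio (replicate 2 to replicate 1) of -0.35 ± 0.01 (counting SE). The sums of the other clusters had log2 ratios of 0.13 ± 0.04 on chromosome 17, 0.27 ± 0.17 and 0.27 ± 0.06 on chromosome 2, 0.02 ± 0.03 on chromosome 7 and 0.04 ± 0.08 on chromosome 8. At this scaling the chromosome 4 cluster was the 1 cluster of the 6 whose sum was lower in replicate 2. The 22 members outside any cluster also summed lower, with 10032 and 7511 counts and a log2 ratio of -0.20 ± 0.02. With the GC trend removed, sums were not computed. The median log2 ratio of tested members was then -0.41 on chromosome 4, -0.10 on chromosome 7 and -0.01 on chromosome 8. It was 0.09 on chromosome 17, 0.01 and 0.21 in the chromosome 2 clusters, and -0.17 over the members outside any cluster.

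The 12 listed markers of 2-cell-like cells, a rare state in these cultures that resembles the cleavage-stage embryo, were mostly lower in the same library. They summed to 427 CPM in replicate 1 and 220 CPM in replicate 2, and none was at 0. The binomial test called 11 of them lower and edgeR 6, where these tests called 13.1% and 0.325% of all tested genes lower. The part of these markers in the result on the cluster was not tested. In these bulk libraries, fewer cells of a type and less RNA per cell cannot be told apart.

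**Figure D3:**
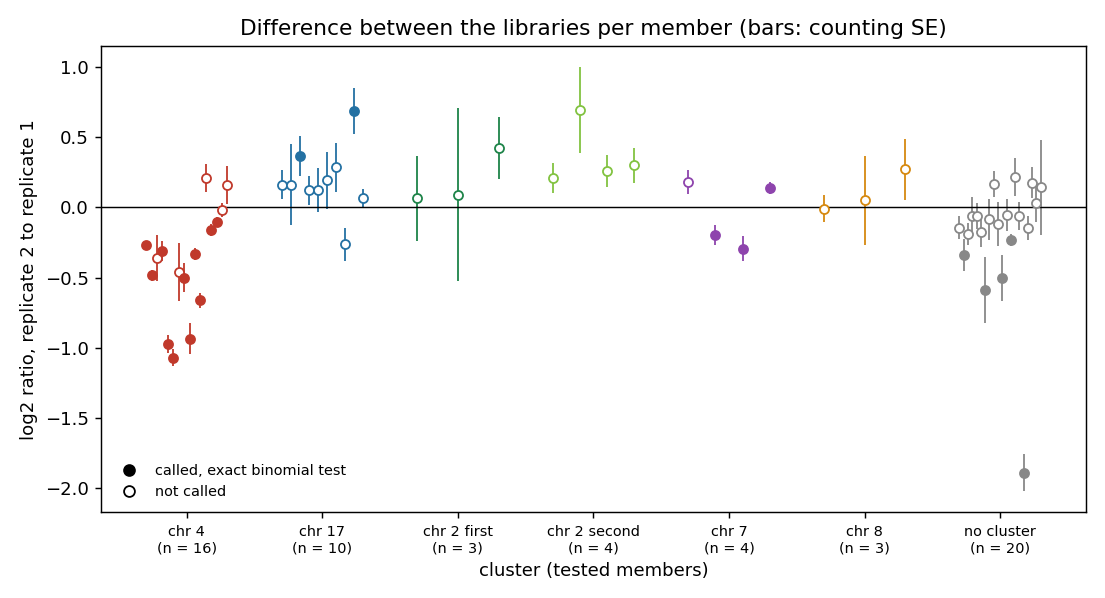
Log2 ratio of replicate 2 to replicate 1 for the 60 tested members (vertical axis), by cluster (horizontal axis), with bars for the counting SE and filled points for members called by the exact binomial test. The chromosome 4 cluster has 14 of 16 members below 0, and Zfp951, outside the clusters, lies lowest at -1.89.

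Zfp981 (ENSMUSG00000056300; chromosome 4, 146502027 to 146539395, plus strand) had 2121 counts in replicate 1 and 865 in replicate 2, or 60.9 and 29.0 CPM. Its log2 ratio was -1.07 ± 0.06 (counting SE), and the adjusted p was 1.27e-79 (exact binomial) and 2.62e-06 (edgeR). Its neighbour Zfp992 (ENSMUSG00000070605; 146449023 to 146470292, plus strand) had 49.9 and 25.4 CPM, a log2 ratio of -0.97 ± 0.06 (adjusted p = 0.000136, edgeR). In these neighbouring genes replicate 1 was the higher library by a similar factor.

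Zfp978 (147361303 to 147391004, plus strand) had 59.4 and 37.6 CPM and a log2 ratio of -0.66 ± 0.05 (adjusted p = 0.0386, edgeR). Zfp991 (ENSMUSG00000067916; 147132038 to 147180579, plus strand) had 16.1 and 8.39 CPM and a log2 ratio of -0.94 ± 0.11. It was called by the exact binomial test (adjusted p = 7.19e-17) and not by edgeR (adjusted p = 0.0817). These members are not independent of each other or of their neighbours. Zfp991 shares 58.4% of its stretches with Zfp992 and 67.1% with the pseudogene Znf41-ps, whose log2 ratio was -1.02 ± 0.16. Zfp981 shares 28.5% with Zfp600 and the same share with Rex2, both genes of the same interval.

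The difference varied along the cluster. The 11 members from Zfp990 to Zfp978 had log2 ratios from -1.07 to -0.27, with a median of -0.49, and 9 of them were called lower. The 5 members from Zfp982 to Zfp933, at the far end, had log2 ratios from -0.16 to 0.21, and 2 of them, Zfp985 (-0.16 ± 0.04) and Zfp979 (-0.10 ± 0.03), were called lower. This division was made after the values were seen and describes members only. Zfp534, the other protein-coding gene tested at the far end, lies between Zfp979 and Zfp984 and had a log2 ratio of -0.45 ± 0.05. Pseudogenes and non-coding genes between Zfp982 and Zfp933 had log2 ratios from -0.68 (Vmn2r-ps20) to 0.33 (Gm20707). Zfp982 had 11.9 and 13.8 CPM and Zfp984 had 54.3 and 53.8 CPM, and neither passed the test. The edgeR test called 3 of the 16 members, Zfp981, Zfp992 and Zfp978.

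Over the cluster as a whole, members with more recurring sequence tended to have lower ratios. The Spearman rho of the share and the log2 ratio was -0.50 over the 16 members and 0.15 over the other 44 tested members, as a description of points that share libraries and reads. Of the 5 cluster members with a share under 30%, 3 were called lower, Zfp990, Zfp979 and Zfp985. All of these 5 but Zfp990 lie at the far end described above. The share and the position along the cluster thus coincide in part, and were not tested apart. Zfp990, with 29.1% of its stretches in other genes, had 202 and 168.5 CPM and a log2 ratio of -0.27 ± 0.03. Of the 11 members with a share of 30% or more, 8 were called lower.

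Other genes of the interval were also compared. Of the 6 other protein-coding genes between the ends of the cluster 5 could be tested, and all 5 were lower in replicate 2 in the exact binomial test, with log2 ratios from -0.79 to -0.42. They were Zfp600 (43.5 and 25.1 CPM), Rex2 (36.2 and 23.2 CPM), Zfp534 (61.0 and 44.7 CPM), Gm13212 (15.5 and 11.1 CPM) and Gm21411 (25.7 and 19.2 CPM). Of these genes edgeR called Zfp600 alone (adjusted p = 0.00998). All 5 also share sequence with members. Rex2 holds 58.6% and Zfp600 56.6% of the 50-base stretches of Zfp980. Zfp534 holds 49.3% of those of Zfp987, Gm13212 46.9% of those of Zfp984, and Gm21411 20.3% of those of Zfp986. Their counts are thus not independent of those of the members. With pseudogenes and non-coding genes included, 16 of 41 tested genes of the interval were called lower, 1 higher and 24 were not called. Within 1000 kb before the interval 5 of 10 tested genes were lower, and within 1000 kb after it 8 of 28 were lower and 1 was higher. Over all of chromosome 4 outside the interval, these flanks included, 154 of 1210 tested genes were lower (12.7%).

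**Figure D4:**
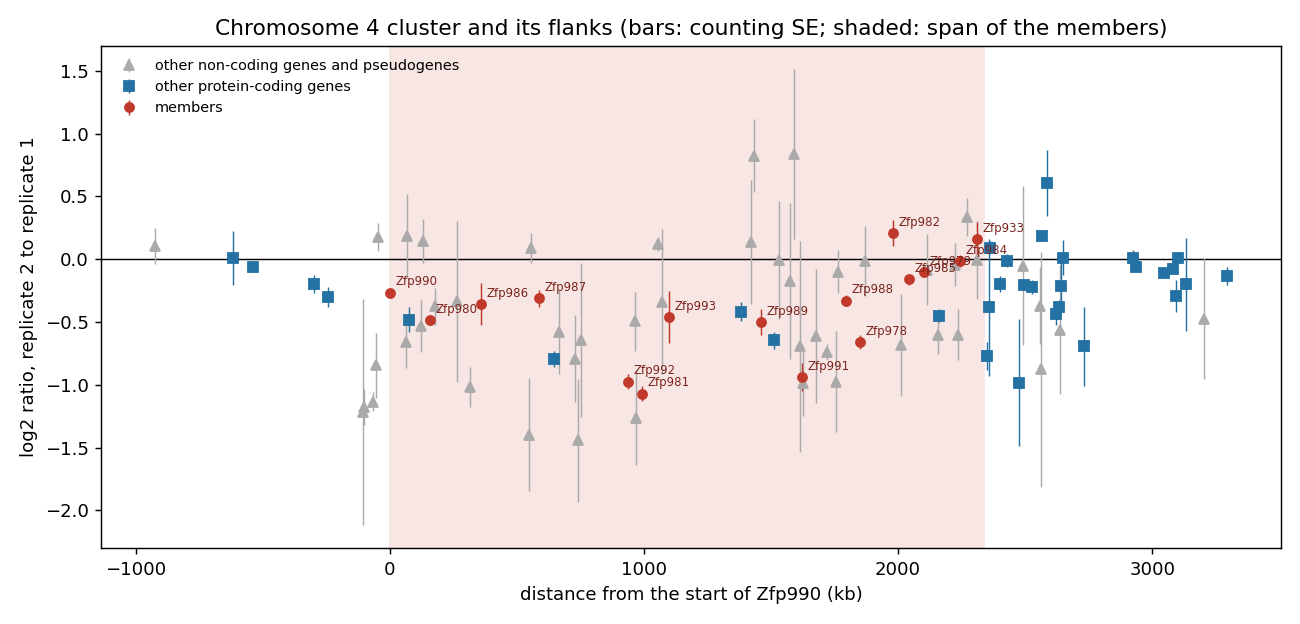
Log2 ratio of replicate 2 to replicate 1 (vertical axis, bars for the counting SE) against distance from the start of Zfp990 in kb (horizontal axis) for tested genes of the chromosome 4 cluster, shaded, and 1000 kb on either side. Red points are members, blue squares other protein-coding genes and grey triangles non-coding genes and pseudogenes; Zfp981 and Zfp992 are the lowest members and Zfp982 the highest at 0.21.

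Promoters of the cluster are shown because 11 of its 16 members were lower in the same library. Each window runs from 250 bases before to 50 bases after a RefSeq start site (GRCm38.p6), and 53 of 63 members had one on their own chromosome, 10 of them in this cluster. Zfp981 and Zfp980 were called lower, and Zfp982 was not called. The start used for Zfp981 lies 12893 bases from the GENCODE start of the gene. Capitals mark the longest run of bases, 23 long, that all 3 windows share.
Zfp981, plus strand, chr4:146514670-146514969: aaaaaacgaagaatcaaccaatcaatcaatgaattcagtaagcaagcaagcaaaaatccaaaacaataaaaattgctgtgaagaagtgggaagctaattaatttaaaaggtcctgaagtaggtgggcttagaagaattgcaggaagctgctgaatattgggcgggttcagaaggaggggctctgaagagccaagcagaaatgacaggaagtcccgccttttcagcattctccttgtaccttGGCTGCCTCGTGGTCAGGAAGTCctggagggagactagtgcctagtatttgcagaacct
Zfp980, plus strand, chr4:145670447-145670746: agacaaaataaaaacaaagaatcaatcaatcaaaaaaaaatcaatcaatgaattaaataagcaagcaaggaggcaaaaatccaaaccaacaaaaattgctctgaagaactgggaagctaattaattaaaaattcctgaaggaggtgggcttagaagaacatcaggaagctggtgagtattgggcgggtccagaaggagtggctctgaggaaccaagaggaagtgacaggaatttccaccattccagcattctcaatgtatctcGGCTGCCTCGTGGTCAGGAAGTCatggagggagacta
Zfp982, plus strand, chr4:147492167-147492466: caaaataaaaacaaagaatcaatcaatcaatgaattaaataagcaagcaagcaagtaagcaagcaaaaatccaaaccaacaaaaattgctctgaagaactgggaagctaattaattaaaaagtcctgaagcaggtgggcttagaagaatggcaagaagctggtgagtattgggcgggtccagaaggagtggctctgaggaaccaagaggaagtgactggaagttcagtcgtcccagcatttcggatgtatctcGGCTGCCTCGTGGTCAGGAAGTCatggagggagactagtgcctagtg
The window of Zfp981 was 81.3% identical to that of Zfp980 and 82% identical to that of Zfp982. Over the cluster, the windows of the other 5 called members with one (Zfp979, Zfp980, Zfp985, Zfp987 and Zfp988) were 72.7 to 81.7% identical to it. Those of the 4 uncalled members were at 82% for Zfp982, 80.7% for Zfp984, 55% for Zfp933 and 50.7% for Zfp993, whose RefSeq start lies 98112 bases from its GENCODE start. The shared run occurs in 4 of all 32851 promoter windows, among them by construction the 3 shown windows that defined it. Windows of the cluster held a median of 4.5 CG dinucleotides, against 7 in all windows and 10.5 in those of the chromosome 17 cluster. The word TATAAA, on either strand, was in none of the 53 member windows and in 13.6% of all windows, which says only that these letters are not in these windows.

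Outside the clusters, Zfp951 (ENSMUSG00000072774; chromosome 5, 104813169 to 104860070, minus strand) had the largest difference of any member. It had 643 counts in replicate 1 and 148 in replicate 2, or 18.5 and 4.97 CPM. Its log2 ratio was -1.89 ± 0.13, and the adjusted p was 1.89e-56 (exact binomial) and 2.07e-08 (edgeR). Of its stretches 1.43% recur in other genes and its exons overlap no other gene, so little of its annotated sequence is shared. It lies away from the clusters. Its nearest neighbours with counts were the pseudogene Gm8258 (24 and 14 counts, log2 ratio -0.53 ± 0.48) and the transporter gene Abcg3 (16 and 15 counts, 0.13 ± 0.51). Neither passed the test, but their counts are few and their counting SEs wide. Zfp951 encodes 10 finger patterns and a KRAB A box.

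The other 9 calls outside the chromosome 4 cluster were smaller, and edgeR called none of them. Of the 6 lower in replicate 2, Zfp956 had the largest difference (2.99 and 1.98 CPM, log2 ratio -0.59 ± 0.23), followed by Zfp934 (5.661 and 3.995 CPM, -0.50 ± 0.17), Zfp954 (-0.34 ± 0.12), Zfp975 (-0.29 ± 0.09), Zfp961 (-0.23 ± 0.04) and Zfp976 (-0.20 ± 0.07). Zfp961, with 81.2 and 69.3 CPM, was the most abundant of these. The 3 higher in replicate 2 were Zfp946 (3.74 and 6.04 CPM, 0.69 ± 0.17), Zfp995 (5.43 and 7.02 CPM, 0.37 ± 0.14) and Zfp936 (66.7 and 73.5 CPM, 0.14 ± 0.04). Zfp946 and Zfp995 lie in the chromosome 17 cluster, where no member was called lower. With the GC trend removed, Zfp936, Zfp995 and Zfp956 were no longer called. Zfp932 was not called, with 18.5 and 16.8 CPM and a log2 ratio of -0.15 ± 0.09.

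Genes of the repression route were expressed throughout. The list holds 26 genes, co-repressors and chromatin partners together with well-studied zinc finger genes, and all 26 reached 1 CPM in both libraries. The exact binomial test called 8 higher and 4 lower in replicate 2, where it called 24.2% of all tested genes, and edgeR called none of the 26. Among all 13553 genes with at least 100 counts, 2038 were called higher and 2295 lower. The highest ratio among the called genes was that of Pphln1, which encodes a subunit of a silencing complex, with 41.7 and 54.9 CPM (0.39 ± 0.05; adjusted p = 1.46e-12, exact binomial, and 0.782, edgeR). The co-repressor gene Trim28 was the most abundant at 1457 and 1399 CPM (log2 ratio -0.06 ± 0.01), but its log2 ratio was 0.0162 with the GC trend removed, so its direction rests on the scaling. Cbx5, which encodes a heterochromatin protein, had 801 and 889 CPM (0.15 ± 0.01). Dnmt1, which maintains DNA methylation, had 487 and 463 CPM (-0.07 ± 0.02) and was not called with the GC trend removed. Zfp57, which guards imprinted regions, had 306 and 309 CPM and was not called. Zfp809, known for silencing a class of retroviruses, had 34.8 and 32.3 CPM and was not called, and Zfp708 was the lowest of the list at 1.72 and 2.35 CPM. Rex2, from the chromosome 4 interval, had the lowest ratio of the list at -0.65 ± 0.07.

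Other cells and states were read from marker lists. All 8 embryonic stem cell markers were expressed, with 6914 CPM in sum in replicate 1 and 6617 CPM in replicate 2. Fibroblast markers summed to 31.55 and 30.01 CPM, and 3 of the 9 listed reached 1 CPM in both libraries. These were the surface protein gene Thy1 (24.7 and 23.1 CPM), Pdgfrb (3.97 and 3.19 CPM) and Col1a1 (2.04 and 3.06 CPM). Pdgfra had 28 and 19 counts, Col1a2 had 0 and 1, Dcn had 2 and 0, and Col3a1, Postn and Lum had 0. Endoderm markers summed to 6.38 and 4.70 CPM (Afp and Ttr at 0), neural markers to 3.56 and 4.03 CPM (Dcx and Olig2 at 0), mesoderm markers to 9.74 and 11.5 CPM and germ line markers to 58.8 and 54.6 CPM.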

How the data were processed

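The deposited files hold raw counts, whole numbers per Ensembl gene from 2 libraries of 1 genotype, as their contents show. STAR 2.4.2a and the mm10 (GRCm38) build are named in the submitters' processing notes, and a reverse-stranded TruSeq protocol in the labels. No source used here gives the counting tool, its strand setting or its treatment of multi-mapped reads. Identifiers were named with GENCODE M21 (47224 of 47643 matched), which also gave positions and exon lengths for TPM.

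CPM used library totals. Counts of replicate 2 and replicate 1 were compared per gene by a two-sided exact binomial test at sizes scaled by edgeR 4.0.16 TMM factors (0.999 and 1.00), and p-values were adjusted by Benjamini-Hochberg over genes holding 10 counts or more, at 0.05. For log2 ratios 0.5 was added to each count. The alternative, edgeR's exact test, took a trended dispersion from both libraries as 1 group (biological coefficient of variation 9.95%), which contains the differences it weighs. DESeq2 1.42.0 size factors, library totals, a lowess GC trend (fraction 0.3), count filters and pseudocounts were also tried. Tests were run first on simulated data. Finger and KRAB patterns were counted in GENCODE coding sequences translated with Biopython 1.88, in place of the RefSeq proteins first planned; recurrence of 50-base stretches across the genome was not analysed here. Floors and SEs include counting error alone.

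The members, gene lists and tests were chosen with earlier results of these data known. Genes were named by rule: the 12 highest in TPM, those called by edgeR's exact test, the 5 largest ratios per direction among called members with at least 100 counts, the 6 with most recurring sequence, the extremes of each cluster, members without counts, Zfp932 and pathway genes. Other genes called by name, the chromosome 4 neighbours, the division of that cluster and the members shown by sequence were chosen after their values were seen.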

Additional observations from a re-analysis of the deposited data

How the results depend on the processing

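The number of members at 1 CPM in both libraries was 59, and stayed between 53 and 59 with thresholds of 0.5 and 2 CPM, 1 TPM and either library alone (59 to 59). Among the 23 members with under 10% recurring sequence it was 22, a smaller set by construction. The exact binomial test called 21 members. DESeq2 size factors, library totals, GC trend removal and other count filters gave 19 to 23, and 11 to 13 of the 16 chromosome 4 members were lower under these, with none higher. Under the same settings 8.7 to 17.9% of all tested genes were lower. edgeR called 4 members. Of members with under 10% recurring sequence 5 were called, and of those outside the chromosome 4 cluster, an alternative chosen after seeing the data, 10. The median level of 3.49 was 3.41 to 3.56 with a single library, 3.20 in TPM, 3.37 with a pseudocount of 0.1, 3.62 for members with under 10% recurring sequence and 3.12 outside the chromosome 4 cluster. The median log2 ratio of -0.06 was 0.0598 and 0.0673 in those last subsets, so its sign rests on the cluster and on members with recurring sequence. Clusters held 41 members, 29 at a spacing of 200 kb and 43 at 1000 kb. No named member that passed the exact binomial test changed direction under any scaling tried. Of the 38 members with a ratio in the text or in the chromosome 4 cluster, 17 lost their call under edgeR, Zfp936, Zfp956 and Zfp995 lost it with the GC trend removed, and Zfp956 lost it with DESeq2 size factors. With the GC trend removed Zfp986 and Zfp993 were also called lower, and the log2 ratio of Trim28, no member, turned from -0.06 to 0.0162. No paired analysis was possible because the series holds 1 group. With 2 libraries, depth limits members of few counts, such as Zfp968 and Zfp969, and counts of near copies cannot be told apart at any depth.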
